A study of Mus musculus with 11 samples.

Results

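The Ikaros family is a set of 5 zinc finger transcription factor genes of the mouse, Ikzf1 (Ikaros), Ikzf2 (Helios), Ikzf3 (Aiolos), Ikzf4 (Eos) and Ikzf5 (Pegasus). They were followed here in chromatin immunoprecipitation and sequencing (ChIP-seq) data from 8946 cells, a mouse line of T-cell acute lymphoblastic leukaemia. The 5 genes were taken by name from the 21887 protein-coding genes of the RefSeq table of mm10, and every deposited peak or segment that overlapped a gene span or the 50 kb on either side of it was counted. That stretch is called the window of the gene.

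All samples came from cells that had been transduced by retrovirus with an epitope-tagged Zmiz1 and an activated Notch1, then sorted for both vector markers, so tagged Zmiz1 and activated Notch1 were present in every group and no group lacked them. There were 2 such lines. The HA line, labelled HA-Zmiz1/ DEGFDLNRDP, gave 1 library each of HA-Zmiz1, ICN1 and input. The Flag line, labelled Flag-Zmiz1/ L1601PDP, gave 1 library each of Flag-Zmiz1, ICN1, Rbpj, H3K4me3, H3K4me1, H3K27me3, H3K27ac and input. Zmiz1 belongs to the PIAS-related coactivators. ICN1, the cleaved part of Notch1 that enters the nucleus, does not bind DNA by itself and is held there by Rbpj. Tag, Notch1 construct and library changed together between the lines, so these cannot be told apart. Each target had 1 library in a line, so nothing below has a replicate and no difference was tested.

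Ikaros proteins bind DNA through zinc fingers near one end and pair with each other through fingers at the other end. Their core recognition sequence, GGGAA, lies inside the TGGGAA core bound by Rbpj, and Ikaros is known to restrain Notch target genes such as Hes1 in developing T cells. Loss of Ikaros function often accompanies activated Notch1 in mouse T-cell leukaemia. Helios and Eos are known from regulatory T cells, Aiolos from maturing B and T cells, and Pegasus is a divergent, widely expressed member.

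The factor libraries held between 13450671 and 19048270 filtered tags, and the inputs 26791332 in the HA line and 36404168 in the Flag line. The lists differed widely in length, with 4984 HA-Zmiz1 peaks and 414 ICN1 peaks in the HA line, and 581 Flag-Zmiz1, 82 ICN1 and 20993 Rbpj peaks in the Flag line. As a check of the cell type, an H3K4me3 segment lay over the start of 10 of 10 T-lineage marker genes, 1 of 8 B-lineage and 1 of 8 myeloid marker genes. The 2 H3K27 libraries went against their labels. The library labelled H3K27me3 covered the start of 10 of 10 active control genes and 1 of 10 silent developmental genes, and the library labelled H3K27ac covered that of 0 of 10 active control genes and 8 of 10 silent developmental genes. Acetylation of H3K27 is known to mark active genes and its trimethylation silent ones. Both are named below as the libraries labelled H3K27me3 and H3K27ac. The deposited data of these libraries carry each other's mark in their names.

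RefSeq promoter entries of GRCm38.p6, the same build as mm10, held 2 starts of Ikzf1 and 1 of Ikzf5. The 250 bases before each start are shown because they set a start of Ikzf1 with an Rbpj peak beside one without. They also give the letters under the Rbpj peak next to the Ikzf5 start. Each runs 5′ to 3′ on the strand of the gene, and capitals mark the bases inside an Rbpj peak.
Ikzf1, upper-coordinate start, plus strand, chr11:11689927-11690176: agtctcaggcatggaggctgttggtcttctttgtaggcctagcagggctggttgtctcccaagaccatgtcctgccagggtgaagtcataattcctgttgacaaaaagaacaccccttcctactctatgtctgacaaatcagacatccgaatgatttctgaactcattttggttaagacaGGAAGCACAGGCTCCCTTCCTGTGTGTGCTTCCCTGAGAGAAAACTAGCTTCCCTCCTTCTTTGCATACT
Ikzf1, lower-coordinate start, plus strand, chr11:11685675-11685924: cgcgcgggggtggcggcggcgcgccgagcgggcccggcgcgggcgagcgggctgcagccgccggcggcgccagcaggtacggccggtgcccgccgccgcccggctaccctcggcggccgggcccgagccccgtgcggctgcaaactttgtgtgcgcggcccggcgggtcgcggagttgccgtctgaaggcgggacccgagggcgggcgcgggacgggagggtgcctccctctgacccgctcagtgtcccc
Ikzf5, minus strand, chr7:131410479-131410728: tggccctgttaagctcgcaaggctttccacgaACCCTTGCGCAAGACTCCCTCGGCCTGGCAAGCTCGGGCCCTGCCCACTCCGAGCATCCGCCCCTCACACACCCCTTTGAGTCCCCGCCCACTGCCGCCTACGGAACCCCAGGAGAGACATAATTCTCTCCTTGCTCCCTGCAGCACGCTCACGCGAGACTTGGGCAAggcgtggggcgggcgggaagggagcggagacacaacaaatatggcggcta

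The Ikzf1 starts differed in composition. The upper-coordinate stretch was 47.6% G and C with 1 CpG pair and had 70 of its 250 bases inside an Rbpj peak, and the lower-coordinate stretch was 82.0% G and C with 44 CpG pairs and held no Rbpj peak. The median over 32851 promoter entries was 52.4% G and C and 6 CpG pairs. The Ikzf5 stretch was 64.0% G and C with 18 CpG pairs, and 168 of its bases lay inside an Rbpj peak. TGGGAA, searched on both strands, was in none of the 3 stretches. It was in 21.6% of all promoter stretches of this length, in 20.1% of the 6997 that met an Rbpj peak and in 22.0% of those that met none. The shorter GGGAA, which is part of TGGGAA, was found 2 times on the reverse strand before the upper-coordinate start of Ikzf1, both inside the Rbpj peak, and 1 time before Ikzf5, outside the peak. It was not found before the lower-coordinate start of Ikzf1, and it was in 56.2% of all promoter stretches. GTGGGAA, a longer form of the Rbpj core, was in none of the 3 and in 5.42% of all stretches. These are matches of letters and do not show binding.

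Factor peaks were unevenly spread over the family. HA-Zmiz1 had 9 peaks in the window of Ikzf1 and 9 in that of Ikzf3, against 0 at Ikzf2, Ikzf4 and Ikzf5. That is 2 of 5 members, where 27.8% of all protein-coding genes had an HA-Zmiz1 peak in their window. HA-line ICN1 had 2 peaks, both at Ikzf1 (3.42% of all genes had one). Rbpj had 15 peaks at Ikzf1, 16 at Ikzf3, 6 at Ikzf4, 3 at Ikzf5 and 2 at Ikzf2, so all 5 members had one, as did 67.2% of all genes. Of the 10 active control genes, 10 had an Rbpj peak and 4 an HA-Zmiz1 peak in their windows. Flag-Zmiz1 and Flag-line ICN1 had 0 peaks at any member, with shares of 4.06% and 0.215% over all genes. Counts of 0 of 5 are near those backgrounds. The 2 Zmiz1 lists shared little anywhere. Of the 18 HA-Zmiz1 peaks of the family 0 met a Flag-Zmiz1 peak, as did 27 of 4984 (0.542%) in the whole list. Over the whole lists, 93.2% of HA-Zmiz1 peaks but 9.29% of Flag-Zmiz1 peaks lay under H3K4me3. Ikzf1 was the 1 member with both HA-Zmiz1 and HA-line ICN1, a combination found in 2.93% of all genes. Among the 10 T-lineage marker genes it was common, with both in 7 windows and HA-Zmiz1 in all 10, though Cd3d, Cd3e and Cd3g are neighbours whose windows share peaks.

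**Figure D1:**
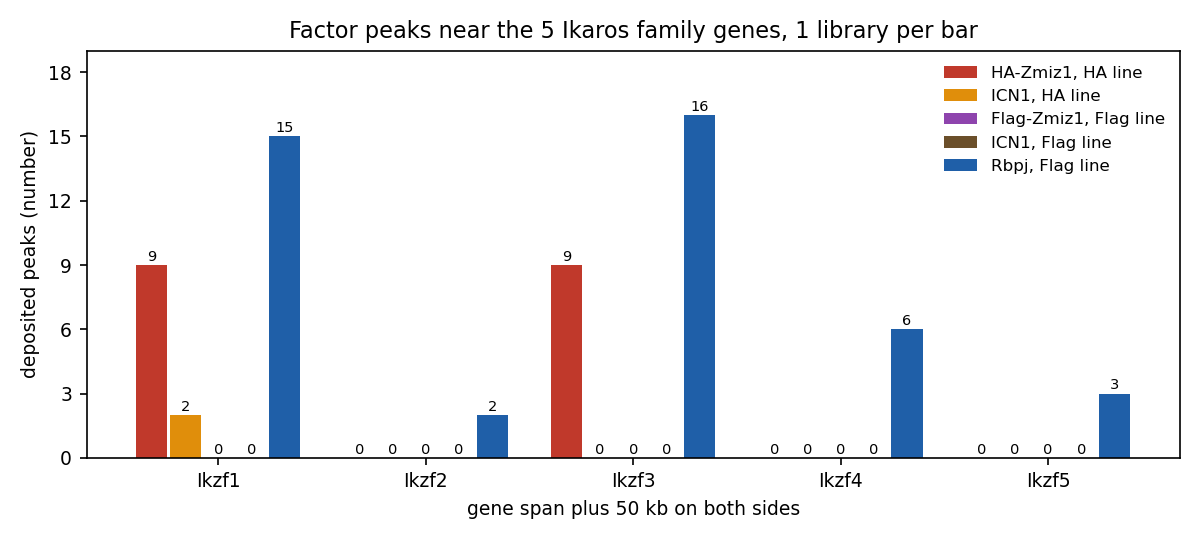
Deposited peaks in the window of each Ikaros family gene (vertical axis, number of peaks), 1 bar per factor library. Ikzf1 and Ikzf3 hold all 18 HA-Zmiz1 peaks, 9 each, and Ikzf1 both ICN1 peaks of the HA line.

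The windows of these genes are of unequal length, from 121.9 kb at Ikzf5 to 256.1 kb at Ikzf2, so peaks were also counted per 100 kb. Ikzf3 had 4.96 and Ikzf1 4.79 HA-Zmiz1 peaks per 100 kb, against a mean of 0.372 and a median of 0 over all genes. For this density, 95 genes stood at or above Ikzf3 and 113 at or above Ikzf1, and 20 of the 21887 genes had 9 or more HA-Zmiz1 peaks in their window. For Rbpj the density was 8.82 at Ikzf3, 7.98 at Ikzf1, 4.32 at Ikzf4, 2.46 at Ikzf5 and 0.781 at Ikzf2, against a median of 1.29. Ikzf2 alone was under the median of all genes. The ICN1 density of Ikzf1 was 1.06, which 42 genes reached. The local input background of the 62 peaks ran from 1.14 to 4.89 times the mean of their library, so 0 of them lay at the high-input places set at 10 or more times the mean.

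Ikzf1, the founding member of the family and a tumour suppressor in T-cell leukaemia, had many of its factor peaks gathered in 1 stretch inside the gene. For each member, the stretch of at most 12 kb with the most factor peaks was chosen, so a high count follows in part from the choice. That of Ikzf1, 11.7 kb on chromosome 11 from 11714785 to 11726502, held 13 of the 26 factor peaks of the window. These were 6 of HA-Zmiz1, both of ICN1 and 5 of Rbpj. It began 24.6 kb after the upper-coordinate start of Ikzf1 (11690177) and lay within the gene span, 11684962 to 11772930. Overlapping peaks of different libraries are counted separately here. Merged where they overlapped, the 26 peaks of the window made 18 sites.

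The strongest HA-Zmiz1 peak of the family lay in that stretch, from 11716470 to 11717045, with a pileup of 32 tags at the summit and a fold of 12.2 over the local input, both as the authors computed them. By −log10 p (29.9) it ranked 114 of the 4984 HA-Zmiz1 peaks. An Rbpj peak with a fold of 7.44 lay within it, and no ICN1 peak did. Of the other HA-Zmiz1 peaks of the stretch, that from 11725986 to 11726442 had a fold of 9.80 and rank 522, that from 11725765 to 11725917 a fold of 8.63, and the remaining 3 had folds of 4.66 to 6.19. The first 3 were thus above the median fold of the HA-Zmiz1 list (6.53) and the last 3 below it.

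ICN1 in the HA line was found at both edges of the same stretch. One ICN1 peak, from 11714830 to 11714888, had a pileup of 9, a fold of 5.54 and rank 322 of 414, and lay wholly inside an Rbpj peak with a fold of 5.86, with summits 33 bp apart. It met no HA-Zmiz1 peak. The other, from 11726054 to 11726119, had a pileup of 8, a fold of 5.60 and rank 325. It lay wholly inside the HA-Zmiz1 peak with a fold of 9.80 and shared 10 bp with an Rbpj peak with a fold of 9.73. Both were among the weaker peaks of a list with a median fold of 6.49. Thus both ICN1 peaks met Rbpj (96.6% of the whole list did) and 1 of 2 met HA-Zmiz1 (72.9%). The same 1 met HA-Zmiz1 and Rbpj together, as did 72.2% of the whole list, and that site no longer counted as shared when an overlap of 50% of the shorter peak was required. With peaks at a −log10 p of 10 or more, neither ICN1 peak was left.

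Outside the stretch, Ikzf1 had an HA-Zmiz1 and an Rbpj peak together 6.9 kb before the lower-coordinate start, with folds of 6.94 and 8.72, and another pair 51.5 kb after the upper-coordinate start, with folds of 4.20 and 4.98. A further HA-Zmiz1 peak lay 27.6 kb below the gene span, with a fold of 5.60. At the starts themselves, the 1 Rbpj peak within 1 kb was that at the upper-coordinate start, from 11690107 to 11690277, with a fold of 5.50 and rank 15514 of 20993. No Zmiz1 or ICN1 peak lay within 1 kb of either start. The strongest Rbpj peak of the window belonged to another gene. It lay from 11808871 to 11809274 at the upper end of Fignl1, 35.9 kb above Ikzf1, with a fold of 28.8 and rank 54. In all, 4 of the 15 Rbpj peaks were nearer to Fignl1 or Ddc than to Ikzf1.

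**Figure D2:**
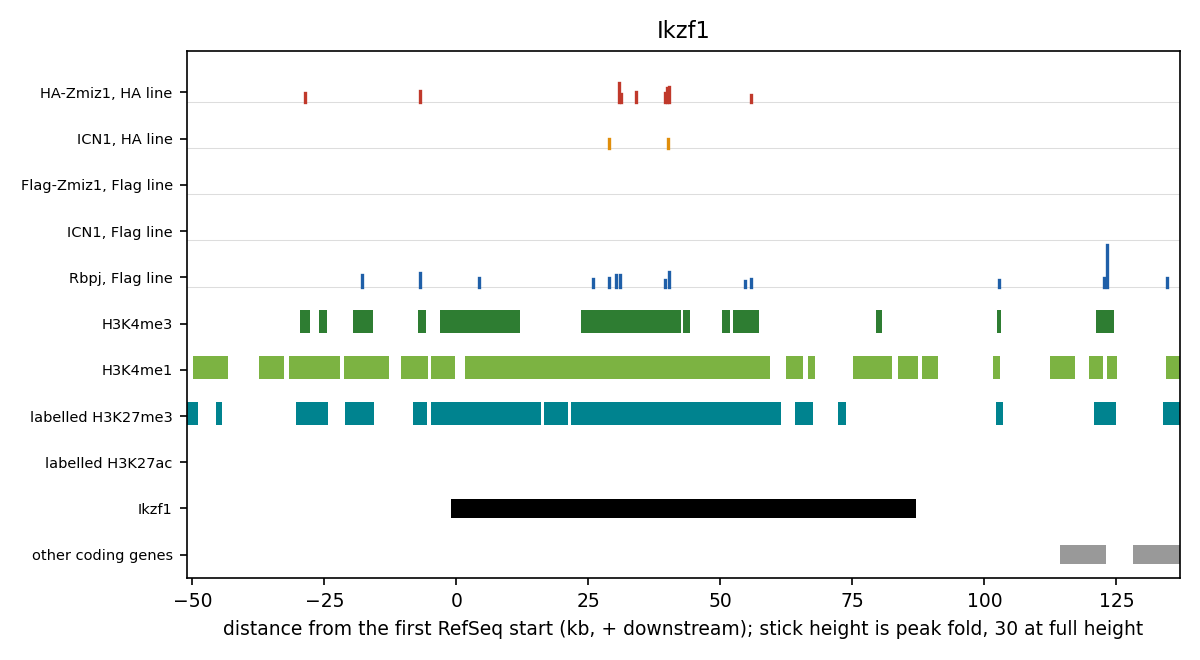
Map of the Ikzf1 window by distance from the lower-coordinate RefSeq start (kb, downstream to the right). Sticks are peak summits with a height proportional to the fold over input, blocks are histone segments, and grey bars are other coding genes. HA-Zmiz1, ICN1 and Rbpj peaks gather in a stretch of 11.7 kb inside the gene, under wide segments of H3K4me1 and of the library labelled H3K27me3.

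Ikzf3, which encodes Aiolos, had as many HA-Zmiz1 peaks as Ikzf1, but spread along the gene and with no ICN1 peak. Its densest 12 kb held 7 of its 25 factor peaks, and these 25 made 17 sites when merged where they overlapped. The strongest site lay inside the gene on chromosome 11, from 98527123 to 98527453, 18.8 kb below the upper end of the span. There HA-Zmiz1 had a pileup of 21, a fold of 10.17 and rank 438, and Rbpj had a pileup of 31, a fold of 13.5 and rank 680. The summits were 15 bp apart.

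Most of the other HA-Zmiz1 sites inside Ikzf3 were paired with Rbpj as well. The peak from 98525204 to 98525377 had a fold of 7.36, beside 4.85 for Rbpj. The peak from 98497435 to 98497529 had a fold of 8.39, beside 7.36 for Rbpj. A neighbouring pair of HA-Zmiz1 peaks near 98470188 and 98470357 had folds of 5.16 and 6.06, each on an Rbpj peak (6.97 and 6.23). All 4 sites lay inside the gene, more than 1 kb from both of its ends. The weakest, from 98493087 to 98493233, had a fold of 3.95, beside 5.58 for Rbpj. The single HA-Zmiz1 peak of Ikzf3 without Rbpj lay from 98487899 to 98487985, with a fold of 7.49.

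A further pair of HA-Zmiz1 peaks lay just below the span of Ikzf3, from 98457816 to 98457918 (fold 8.91) and from 98459207 to 98459482 (fold 8.86). Both were on Rbpj peaks (folds 10.99 and 8.17) and both were nearer to Mien1 than to Ikzf3. At the upper end of Ikzf3, which carried the strong H3K4me3 segment, there were 2 Rbpj peaks within 1 kb, with folds of 5.84 and 7.51, and no Zmiz1 peak. Of the 16 Rbpj peaks, 6 were nearer to Mien1, Zpbp2 or Ormdl3.

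**Figure D3:**
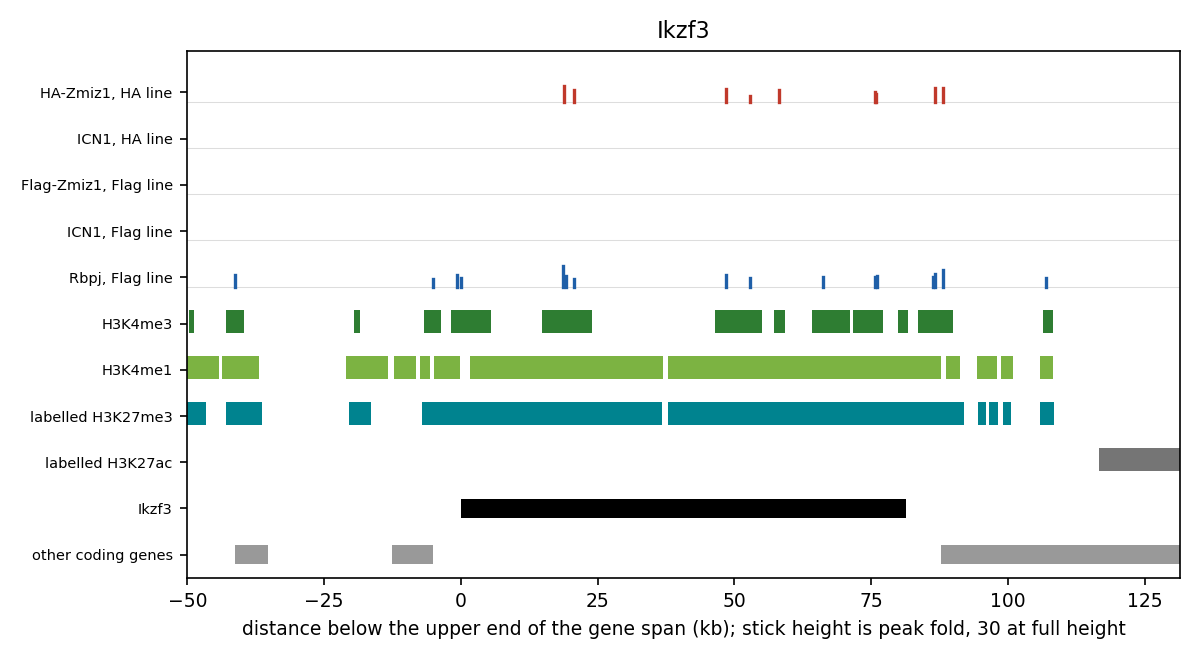
Map of the Ikzf3 window by distance below the upper end of the gene span (kb), drawn as for Ikzf1. HA-Zmiz1 sticks stand over Rbpj sticks along the gene, the ICN1 rows are empty, and segments of H3K4me1 and of the library labelled H3K27me3 cover nearly the whole span.

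HA-Zmiz1 and Rbpj thus coincided at 6 of 9 HA-Zmiz1 peaks of Ikzf1 and 8 of 9 of Ikzf3, or 14 of 18 together, where 71.3% of the whole HA-Zmiz1 list met an Rbpj peak. Seen from Rbpj, 5 of 15 peaks at Ikzf1 and 8 of 16 at Ikzf3 carried HA-Zmiz1. The windows of Ikzf4, Ikzf5 and Ikzf2 held 0 HA-Zmiz1 peaks, so 0 of 6, 0 of 3 and 0 of 2 there were fixed in advance. For the family this was 13 of 42 Rbpj peaks, where the share over the whole Rbpj list was 16.9%. The counts at Ikzf1 and Ikzf3 follow in part from their many HA-Zmiz1 peaks. Summits of overlapping HA-Zmiz1 and Rbpj peaks lay a median of 55 bp apart at Ikzf1 (14 to 377 bp) and 19 bp at Ikzf3 (3 to 184 bp). Only peaks that overlapped were measured, which by itself keeps these distances short. Rbpj was profiled in the Flag line only, so each of these pairs joins libraries of both lines. In bulk chromatin, a site bound in few cells and a site bound weakly in many cannot be told apart.

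Ikzf2, the gene of Helios, has the longest span of the family, 156.1 kb, and no other coding gene in its window. It had the fewest peaks. Its 2 Rbpj peaks lay side by side on chromosome 1 at the upper end of the span, from 69687221 to 69687472 and from 69687535 to 69687621, each with a pileup of 11 and folds of 6.79 and 6.80. They ranked near the middle of the list, at 11521 and 11473 of 20993. The nearest HA-Zmiz1 peak lay 81.6 kb from the span, with a fold of 3.65.

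Ikzf4, the gene of Eos, lies among other genes on chromosome 10. Of its 6 Rbpj peaks, 1 was inside the span, from 128669013 to 128669107, 0.646 kb below the upper end, with a pileup of 8 and a fold of 5.19. The gene Suox lies 0.216 kb above that end, so this peak was also close to Suox. The other 5 Rbpj peaks had folds of 5.38 to 7.51 and lay nearer to Rps26, a ribosomal protein gene, and to Rab5b and Pmel. The nearest HA-Zmiz1 peak lay 64.7 kb from the span (fold 9.27) and the nearest HA-line ICN1 peak 76.6 kb (fold 7.31), so a window of 100 kb would have counted them.

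Ikzf5, the gene of Pegasus, lies on chromosome 7 next to Acadsb. Its Rbpj peak from 131410529 to 131410696, with a pileup of 19 and a fold of 5.53, lay between the ends of the Ikzf5 and Acadsb spans and over that of Acadsb, so it cannot be given to one of these genes alone. The strongest Rbpj peak of the window, with a fold of 13.1 and rank 788, lay 25.6 kb below the Ikzf5 span at the upper end of 2310057M21Rik. The third, with a fold of 3.88, lay at the lower end of Pstk. For the whole family, the peaks nearest to the limit of the window were an Rbpj peak 47.5 kb from Ikzf1 (fold 5.86), which was counted, and one 51.4 kb from Ikzf3 (fold 4.83), which was not.

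**Figure D4:**
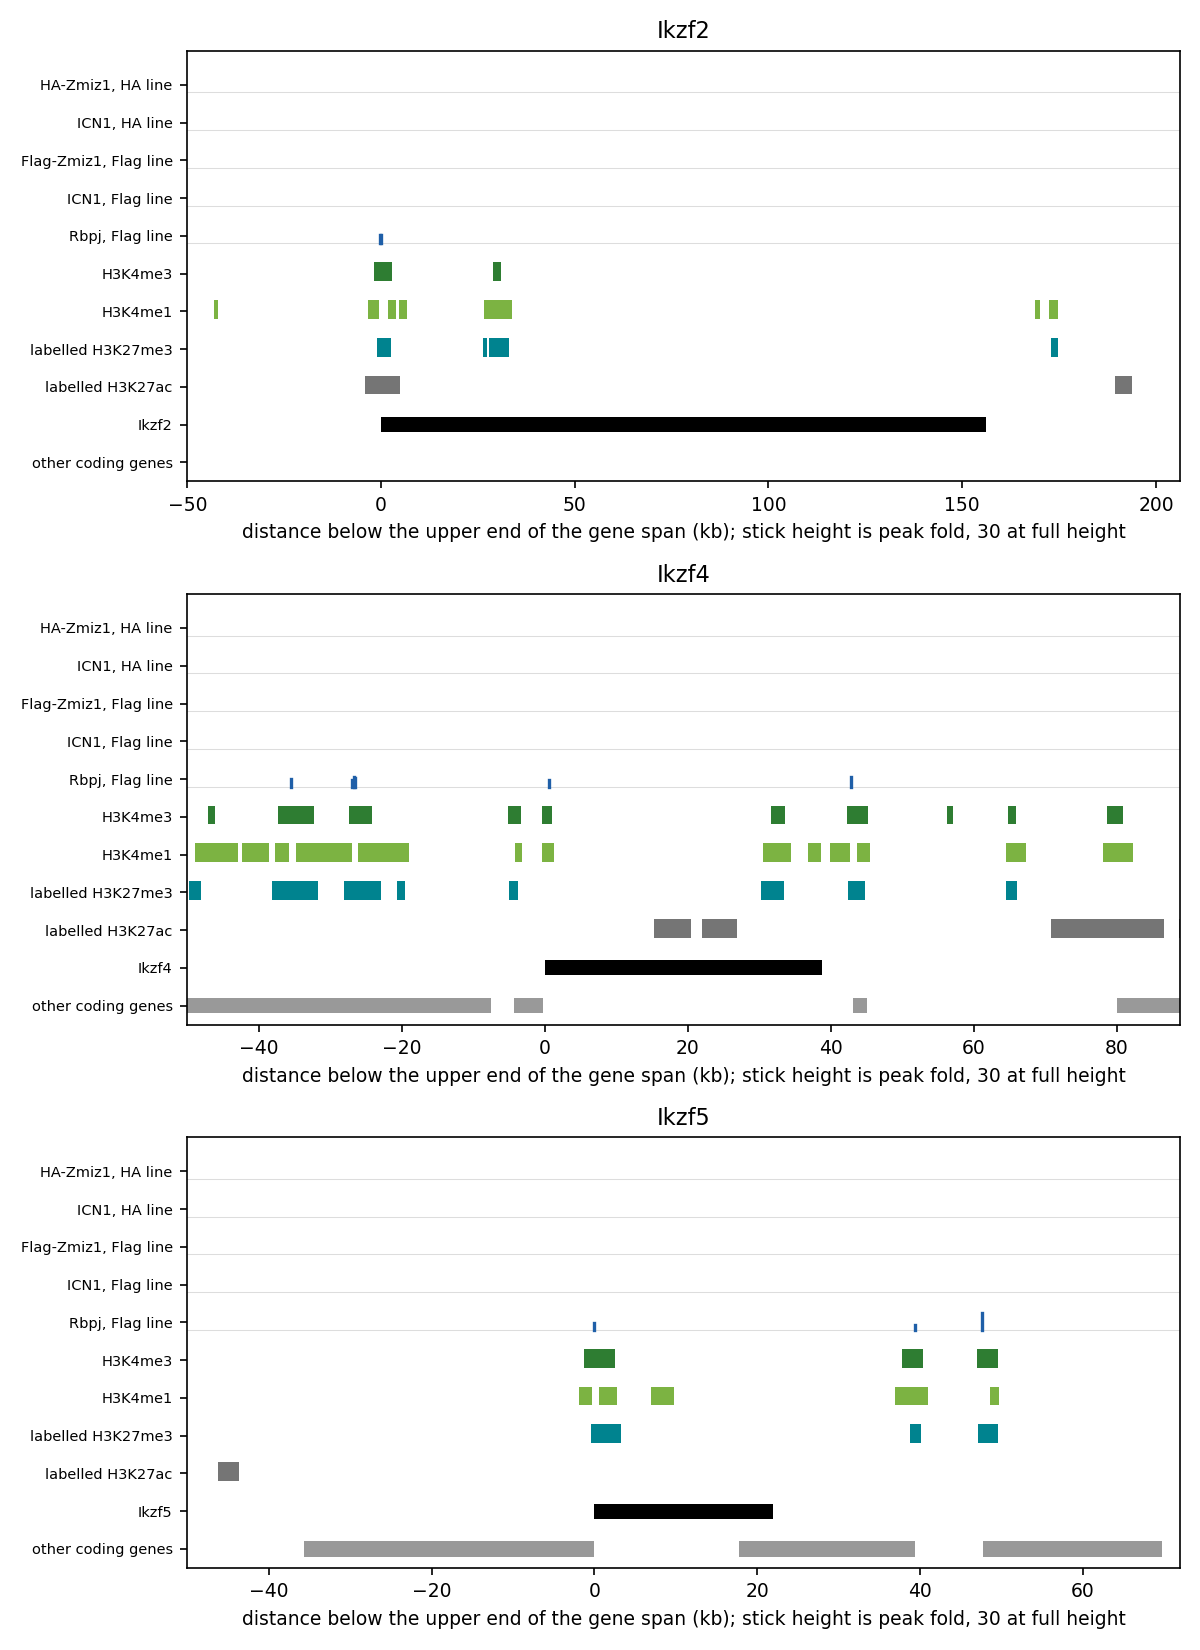
Maps of the Ikzf2, Ikzf4 and Ikzf5 windows by distance below the upper end of each gene span (kb), drawn as for Ikzf1. Rbpj sticks are the only factor peaks, with 2, 6 and 3 of them. H3K4me3 segments lie at the upper end of each gene, and each gene also has histone segments inside its span.

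H3K4me3, a mark of active or poised starts, lay over a start of all 5 members (over an end of the span where no start was listed), where 48.3% of all genes had it. H3K4me1 lay over a start or end of 3 members, Ikzf1, Ikzf3 and Ikzf4 (18.0% of all genes). Ikzf3 counted only through its lower end, where the H3K4me3 fold was 1.66, and its upper end had no H3K4me1 segment. Genes with no listed start had both ends looked at. Counted within 1 kb, H3K4me1 reached all 5 members, and 9 in place of 2 of the 10 active control genes. The H3K4me3 segment at the Ikzf1 starts was 15.2 kb wide, the 46th widest of 26767, and held 5069 reads (exact 95% Poisson interval 4930 to 5211, counting error only) with 502 control reads, a fold of 15.5. The upper ends of Ikzf3 and Ikzf2 and the Ikzf5 start had segments of 7.2, 4.8 and 3.8 kb with folds of 16.0, 15.4 and 14.5. Ikzf4 had the weakest, 1.4 kb with 144 reads (121 to 170), 27 control reads and a fold of 8.18, and this segment reached into the span of Suox. A second segment of 18.8 kb lay inside Ikzf1 over the stretch of gathered peaks. It was the 23rd widest of the list but held 77.7 reads per kb, against 333 per kb in the segment at the starts.

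The bodies of Ikzf1 and Ikzf3 lay under some of the widest segments of H3K4me1 and of the library labelled H3K27me3. H3K4me1, a mark of enhancers, formed a segment of 57.8 kb in Ikzf1, the 31st widest of 46130, with 5619 reads (5473 to 5768) and a fold of 3.99. In Ikzf3 it formed segments of 50 kb, the 48th widest, with a fold of 4.30, and of 35.4 kb, the 149th widest, with a fold of 3.29. The median width of that list was 2.80 kb. The library labelled H3K27me3 had segments of 54.2 and 44.0 kb over Ikzf3, the 21st and 41st widest of 33646, with folds of 6.06 and 4.51. Over Ikzf1 it had segments of 39.8 and 20.8 kb, the 56th and 370th widest, with folds of 6.36 and 7.43.

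As a share of the gene span, segments of the library labelled H3K27me3 covered 98.8% of Ikzf3 and 75.3% of Ikzf1, against 15.2% of Ikzf5, 8.24% of Ikzf4 and 5.48% of Ikzf2, with a median of 1.52% over all genes. H3K4me1 covered 97.0% of Ikzf3 and 83.6% of Ikzf1, against 22.9%, 18.2% and 7.30% of Ikzf5, Ikzf4 and Ikzf2 (median of all genes 4.36%). For H3K4me3 the shares were 48.4% and 46.4% in Ikzf3 and Ikzf1 and 11.5%, 7.91% and 3.17% in Ikzf5, Ikzf4 and Ikzf2 (median 2.35%). The order of the 5 genes was the same in these 3 libraries, each with no replicate spread to set beside the steps between neighbours in that order. In the library labelled H3K27me3, Ikzf3 stood at percentile 98.2 of all genes and Ikzf1 at percentile 96.5.

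**Figure D5:**
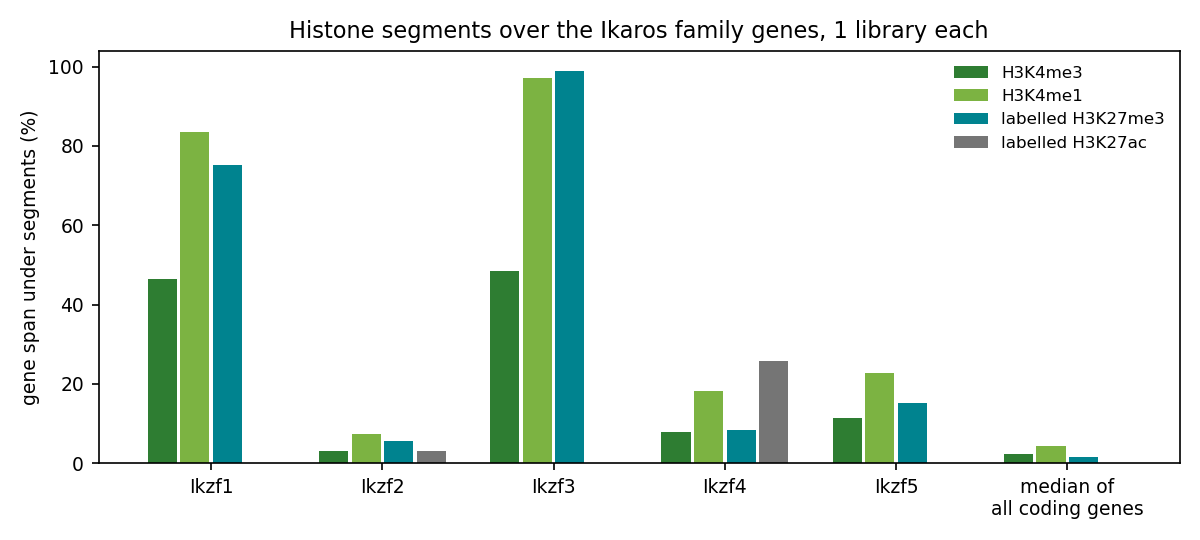
Share of each gene span under histone segments (vertical axis, percent), 1 bar per library of the Flag line, with the median of all coding genes at the right. Ikzf3 and Ikzf1 are covered at 98.8% and 75.3% by the library labelled H3K27me3 and at 0% by the library labelled H3K27ac.

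The library labelled H3K27ac, whose segments lay over silent developmental genes, was found over the spans of Ikzf4 and Ikzf2 only. Ikzf1, Ikzf3 and Ikzf5 had none of it over their spans. The window of Ikzf1 held no segment of it at all, and the one in the window of Ikzf3, 24.8 kb wide with a fold of 4.37, lay over part of Erbb2, a receptor tyrosine kinase gene. Ikzf4 had 2 segments inside the gene, of 4.8 and 5.2 kb, with 122 reads (101 to 146) and 105 reads (85.9 to 127), 88 and 110 control reads and folds of 2.52 and 1.74. They covered 25.8% of the span, and the fold of 1.74 was below the list median of 2.26. Outside the span, the window of Ikzf4 held segments of 2.6 and 15.8 kb with folds of 2.21 and 2.95. The window of Ikzf5 held a segment of 2.6 kb with a fold of 1.89, also outside the span. Ikzf2 had a 9.0 kb segment over its upper end, with 186 reads (160 to 215), 210 control reads and a fold of 1.61. Another in its window, of 4.2 kb with a fold of 1.69, lay outside the span.

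The upper end of Ikzf2 was therefore the 1 end or start of the family under segments of both H3K27 libraries, together with H3K4me3 and 2 Rbpj peaks. There the library labelled H3K27me3 had a segment of 3.6 kb with 133 reads, 88 control reads and a fold of 2.35. Both H3K27 folds were below the medians of their lists (2.84 for the library labelled H3K27me3 and 2.26 for that labelled H3K27ac), and neither segment was left when segments in the upper 50% by fold were used. In all, 1 of 5 members had a start or end under the library labelled H3K27ac, against 17.5% of all genes, and 4 of 5 under the library labelled H3K27me3, against 43.9%.

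Factor peaks of the family lay under H3K4me3 and the library labelled H3K27me3 about as often as the whole lists did. Both held all 18 HA-Zmiz1 peaks, both ICN1 peaks and 41 of 42 Rbpj peaks. Over the whole lists the shares in H3K4me3 were 93.2%, 89.1% and 87.3% for HA-Zmiz1, HA-line ICN1 and Rbpj, and those in the library labelled H3K27me3 were 93.6%, 89.4% and 86.2%. For H3K4me1 the counts were 17 of 18 HA-Zmiz1 peaks (82.8% of the whole list) and 31 of 42 Rbpj peaks (57.8%). The 2 of 42 Rbpj peaks under the library labelled H3K27ac were those of Ikzf2 (5.31% of the whole Rbpj list lay under it). All histone libraries came from Flag-line cells, and the HA-Zmiz1 peaks did not.

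Genes of complexes that Ikaros proteins recruit were looked at as a list of 18, mostly subunits of the NuRD and Sin3 repressor complexes. Rbpj was in the window of 17 of them and HA-Zmiz1 of 8, beside 67.2% and 27.8% of all genes. Active control genes had Rbpj in 10 of 10 windows and HA-Zmiz1 in 4 of 10. An H3K4me3 segment lay over the start of 17 of the 18, beside 48.3% of all genes and 10 of 10 active control genes. HA-line ICN1 was near 1, beside 3.42% of all genes. This was Mbd2, which had 5 HA-Zmiz1, 1 ICN1 and 7 Rbpj peaks and encodes a methyl-CpG-binding NuRD subunit. Chd3, a NuRD helicase, had 12 Rbpj peaks and no other. Flag-Zmiz1 and Flag-line ICN1 were near none. Of 14 genes of the Notch pathway and its targets, 6 had HA-Zmiz1, 5 HA-line ICN1, 12 Rbpj, 1 Flag-Zmiz1 and 1 Flag-line ICN1 in their windows, beside 27.8%, 3.42%, 67.2%, 4.06% and 0.215% of all genes. All 5 with ICN1 also had HA-Zmiz1, as did 642 of the 749 coding genes with HA-line ICN1. The most factor peaks of this list were at Ccnd3, the cyclin D3 gene, with 5 HA-Zmiz1, 2 ICN1 and 16 Rbpj peaks. Il2ra, the interleukin-2 receptor alpha gene, had 7 HA-Zmiz1 peaks, the most in these 2 lists. Among the 10 T-lineage marker genes, Cd3e, which encodes a chain of the T-cell receptor complex, had 9, as many as Ikzf1 and Ikzf3.

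The genes closest to each member in pattern were found from the percentile, among all coding genes, of peak density in the 5 factor libraries and of window coverage in the 4 histone libraries. Over these 9 libraries Ikzf1 was closest to Trim72, Rpl11 and Arsi, at distances of 0.826, 0.989 and 1.34 percentile points. These have 5 or 6 HA-Zmiz1 and 1 to 3 ICN1 peaks in their windows. Ikzf3 was closest to Them5, Phb2 and Cox4i2 (1.72 to 2.78), Ikzf2 to Usp25, Parl and Tdrd6 (5.06 to 5.64), Ikzf4 to Med19, Polr3gl and Spryd3 (6.86 to 7.92) and Ikzf5 to Hnrnpd, Gle1 and Taf11 (4.44 to 6.71).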

How the data were processed

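Peaks and segments were used as the authors deposited them. Per the labels' protocols, chromatin was fixed with disuccinimidyl glutarate and formaldehyde for factors and with formaldehyde for histones. Per the file headers, peaks of the 5 factor libraries were called with MACS 2.0.10.20120913, using each line's own input, with a p limit of 1e-05, 1 tag per position and local backgrounds of 1000 and 10000 bp, and the HA-line headers name pooled reads. The submitters' processing notes name Bowtie 0.12.7, MACS2 2.0.10, SICER 1.1, HOMER 4.2, FastQC 0.10.0 and mm10. Each deposited peak has a pileup signal, a fold over the local background (a ratio) and a −log10 p, and each deposited segment has read counts of the precipitation and of a control, a fold (a ratio), and a p-value and false discovery rate, all computed by the authors. They serve only to describe and rank within a list. Read totals of the histone libraries are not given, and their depths relative to the control were not compared.

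Segment starts count from 0 in the deposited data and were raised by 1, ends too. Overlap means at least 1 bp. Gene spans came from RefSeq GRCm38.p6, and starts from its promoter table, which held Ikzf1 and Ikzf5 but not Ikzf2, Ikzf3 and Ikzf4; for genes without an entry both ends of the span were used. Local input was recovered as (pileup + 1) / fold − 1. Exact Poisson intervals (95%) cover counting error only. Interval counts were tested on simulated data. Python 3.11.15, pandas 2.3.3, numpy 2.4.6, scipy 1.17.1 and matplotlib 3.10.9 were used.

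All 5 members are named, with neighbours nearer to a peak, the 3 genes closest in pattern by Euclidean distance, and the list genes with the most factor peaks. Members and lists (T-lineage, B-lineage and myeloid markers, active and silent controls, Ikaros partner complexes, Notch genes) were chosen with earlier results of these data known.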

Additional observations from a re-analysis of the deposited data

How the results depend on the processing

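Counts were recomputed for 12 results. With windows of 10 kb, all 8 peak counts stayed within 1.5 times. Leaving out high-input peaks could change nothing, since the members had 0 of them. With windows of 100 kb, 2 ICN1 peaks in place of 1 met HA-Zmiz1 and Rbpj, and 2 members in place of 1 had both HA-Zmiz1 and HA-line ICN1 (the second is Ikzf4). With peaks at a −log10 p of 10 or more, there were 10 HA-Zmiz1 peaks in place of 18, 23 Rbpj peaks in place of 42, 7 HA-Zmiz1 peaks on Rbpj in place of 14, 0 HA-line ICN1 peaks in place of 2, and so 0 on both other factors and 0 members with both. Requiring 50% of the shorter peak left 12 of 14 HA-Zmiz1 peaks on Rbpj and 0 ICN1 peaks on both. In the upper 50% of segments by fold, the library labelled H3K27me3 covered the starts of 2 members in place of 4 and that labelled H3K27ac 0 in place of 1. Counting segments within 1 kb of a start, H3K4me1 reached 5 members in place of 3, and 9 in place of 2 of the 10 active control genes. Fewer peaks or segments entered, by construction, under the stricter limits. No paired analysis was possible because each group has 1 library and the counts come from no test. Peak detection depends on depth and on the antibody, so an empty window does not show absence of the factor.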

Other observations

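Several of the strongest Rbpj peaks in these windows stood at genes other than the Ikaros family. Besides Fignl1 and 2310057M21Rik, the Rbpj peak near the upper end of Mien1 (chromosome 11, 98457805 to 98458131) had a fold of 10.99 and rank 955 of 20993. The peak at Ormdl3, a regulator of sphingolipid synthesis, and that at Rps26 each had a fold of 7.44 and rank 4663. An Rbpj peak inside Ikzf1 had the same fold and rank. Stronger ones also lay inside the family's genes, with rank 680 (fold 13.5) in Ikzf3 and rank 2222 (fold 9.73) in Ikzf1. The Fignl1 site lay under an H3K4me3 segment with a fold of 21.2 and under a segment of the library labelled H3K27me3 with a fold of 10.0, the 660th and 121st highest folds of their lists.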
